A study of Mus musculus with 2 samples.

Results

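Integrins are receptors for matrix and for other cells, and each is built of an alpha and a beta chain. In leukocytes, the beta chain CD18 (Itgb2) pairs with CD11b (Itgam), CD11c (Itgax) or CD11a (Itgal), and CD11b and CD11c are surface proteins by which the colon cells described here were sorted. Of the 31053 genes in the count tables, 10 integrin genes were taken by symbol: Itgam, Itgax, Itgb2, Itgal, Itga4, Itgb7, Itgae, Itga9, Itgb5 and Itgav. They were chosen as a list and not for their values, and each symbol matched 1 row.

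The cells came from colons of bone marrow chimeras, in which CD45.1 recipients carried blood-forming cells of CD45.2 donors. In 1 library the donors were deleted for the IL-10 receptor (IL-10R KO, here KO; the methods name the Il10rb chain). In the other they were deleted for it and for ceramide synthase 2, which makes ceramides of very long acyl chains (IL-10R/CerS2 DKO, here DKO), so both lacked the receptor and no library of intact donors was used here. Colon cells were freed with collagenase D and sorted by CD11b, CD11c and CD64 (Fcgr1). The labels join the antigens by slashes, while the methods write the gate as CD45+CD11b+CD11c+CD64+ and give the exclusion of lymphocytes and neutrophils as its aim. The paper's main text names only CD45+ immune cells as sorted, with macrophages then analysed. Which gate each cell passed is thus not settled. With 1 library per genotype and the number of mice behind each not given, genotype cannot be told apart from mouse, sort or library. All intervals are exact 95% intervals and cover counting error only, except that a share of 0 is given with the limit of 3 cells, and no test was run.

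The deposited tables held 12549471 UMIs (unique RNA molecules) for KO and 3414944 for DKO, and after the cell filter 2443 KO cells had a median of 4715 UMIs and 730 DKO cells one of 3722. The libraries shared 1 barcode. Cers2, deleted in DKO alone, gave 438 UMIs among monocyte/macrophage-like cells of KO and 1 among those of DKO. Il10rb gave 38 and 9 UMIs there, and since the deleted stretch is not given in the sources used here, these 3′ reads do not check the label. Classes were gated cell by cell on marker lists that hold no integrin and no sort antigen. A class needed at least 3 different markers of its list. The labelled cell type, colon macrophage, held for part of the cells, as 1552 KO cells (63.5%) and 340 DKO cells (46.6%) were monocyte/macrophage-like. Lymphocyte-like cells were 515 in KO (21.1%) and 274 in DKO (37.5%), with 218 and 164 B cell-like, 130 and 54 T cell-like, 161 and 53 cytotoxic T cell-like, and 6 and 3 cytotoxic innate-like cells. Neutrophil-like cells were 149 and 43, and dendritic cell-like cells 24 and 11. The dendritic cell gate was narrow, and the monocyte/macrophage-like class still held 58 KO and 25 DKO cells with at least 2 dendritic cell markers.

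CD11b and CD11c each need CD18 to reach the surface. CD11b is the classic integrin of neutrophils, monocytes and macrophages. CD11c marks dendritic cells and tissue macrophages, and is also known on some activated and gut-resident T cells. The alpha chain Itga4 pairs with Itgb7 or Itgb1 in homing to the gut and to inflamed vessels, and Itgae pairs with Itgb7 to hold lymphocytes and dendritic cells in the epithelium by E-cadherin. Itgav, paired with Itgb5 and other beta chains, binds vitronectin and can release active TGF-beta.

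Itgam and Itgax lie side by side on chromosome 7 (GRCm38, plus strand), Itgam at chr7:128062640-128118491 and Itgax at chr7:128129547-128150657, with 11055 bases and no other protein-coding gene lying wholly between them. Both are protein-coding genes whose transcripts differed across the classes below, so the 250 bases before each RefSeq start (GRCm38.p6) are shown, Itgam from chr7:128062390-128062639 and Itgax from chr7:128129300-128129549. Capitals mark matches to GAGGAA, the core read by PU.1, and to TGANTCA, the AP-1 site, on either strand.
Itgam: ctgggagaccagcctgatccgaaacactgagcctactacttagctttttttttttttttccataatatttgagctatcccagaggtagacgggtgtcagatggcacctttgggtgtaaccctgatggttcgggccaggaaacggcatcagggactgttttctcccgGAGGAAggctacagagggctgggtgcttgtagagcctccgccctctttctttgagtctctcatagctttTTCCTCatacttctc
Itgax: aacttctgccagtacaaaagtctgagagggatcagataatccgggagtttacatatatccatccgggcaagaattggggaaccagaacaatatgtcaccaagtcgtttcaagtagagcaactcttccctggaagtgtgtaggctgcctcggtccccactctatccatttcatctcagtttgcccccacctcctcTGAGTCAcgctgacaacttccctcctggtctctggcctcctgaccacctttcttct
The Itgam window held 2 matches to GAGGAA, as read at bases -84 to -79 from the start and on the other strand at -15 to -10, and none to TGANTCA. In the Itgax window the reverse was seen, with TGANTCA, which reads the same on both strands, at -56 to -50 and no GAGGAA. Over the same 250 bases, 23.3% of 32851 RefSeq promoters held GAGGAA and 6.75% held TGANTCA, and the matches are given as a description only. Promoter sequences were at hand for 7 of the 10 genes. Itgal lies on the same chromosome at chr7:127296260-127335138 and Itgb2 at chr10:77530252-77565708, while Itga4 and Itgav share chromosome 2, at chr2:79255426-79333123 and chr2:83724397-83806916. Itgae is at chr11:73090583-73147446, Itga9 at chr9:118606690-118901003, Itgb5 at chr16:33829665-33949338 and, on the minus strand, Itgb7 at chr15:102215995-102231944. The gene Gm49368 is annotated on the same strand over Itgam and covers 3450 of its 5024 exon bases, but none of the last 1000, where reads of a 3′ library fall. It had 61 UMIs in KO and 14 in DKO, beside 1280 and 310 of Itgam, and reads in the shared exons cannot be given to either gene. Cerkl lies on the strand opposite to Itga4, over 533 of its last 1000 exon bases, and had 17 and 3 UMIs.

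The transcripts of the sort antigens lay mainly in monocyte/macrophage-like cells. In KO, 646 of 1552 monocyte/macrophage-like cells (41.6%, 39.2 to 44.1) had an Itgam UMI, 497 (32.0%, 29.7 to 34.4) an Itgax UMI and 453 (29.2%, 26.9 to 31.5) an Fcgr1 UMI. In DKO the shares were 43.5% (38.2 to 49.0), 28.5% (23.8 to 33.6) and 28.5% (23.8 to 33.6) of 340 cells, in the same order. At least 1 of the 3 was found in 1122 KO cells (72.3%) and 251 DKO cells (73.8%) of this class, and all 3 in 56 (3.61%) and 7 (2.06%). The class held 88.0% of all Itgam UMIs and 87.6% of all Itgax UMIs in KO, and 87.7% and 88.6% in DKO. It also held most UMIs of all genes, 8868651 of 12411247 in kept KO cells and 2081582 of 3401458 in kept DKO cells. A missing UMI does not show a missing protein: 430 of the KO cells (27.7%) and 89 of the DKO cells (26.2%) of this class, at median depths of 5489 and 5624 UMIs, had none of the 3.

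**Figure D1:**
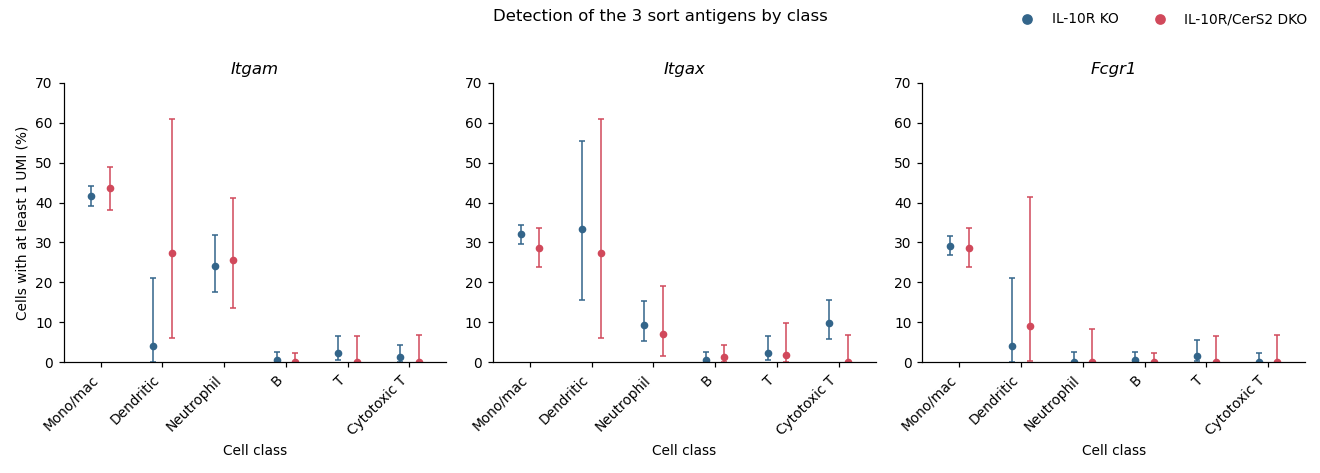
Share of cells with at least 1 UMI of Itgam, Itgax or Fcgr1 (percent, y axis) in 6 marker-gated classes (x axis), with points for the share and bars for its exact 95% interval, KO in blue and DKO in red. Itgax in KO cytotoxic T cell-like cells, at 9.94%, stands by value above the B and T cell-like classes drawn, and Fcgr1 is at 29.2% and 28.5% in monocyte/macrophage-like cells and low elsewhere.

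Few lymphocytes carried either transcript, and those that did were mostly KO cytotoxic T cells with Itgax. Of 515 KO lymphocyte-like cells, 27 (5.24%, 3.48 to 7.54) had an Itgam or Itgax UMI, and of 274 DKO cells 4 did (1.46%, 0.399 to 3.70). No UMI of Itgam, Itgax or Fcgr1 was found in 487 KO (94.6%) and 270 DKO (98.5%) of them. Of the 27 positive KO cells, 18 were cytotoxic T cell-like, 4 T cell-like, 3 cytotoxic innate-like and 2 B cell-like. The 4 positive DKO cells were 2 B cell-like, 1 T cell-like and 1 cytotoxic innate-like.

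B cells were the largest lymphocyte class in the sorted cells and gave almost none of these transcripts. In KO, 1 of 218 B cell-like cells had 1 Itgam UMI and another had 1 Itgax UMI, together 0.917% (0.111 to 3.27). In DKO, Itgam was found in 0 of 164 cells, which allows a share of up to 1.83%, and Itgax in 2 cells with 1 UMI each. Levels are given in CPM, the gene's UMIs summed over a class and scaled to the same total for every class, with no correction for length. The Itgax level was 1.66 CPM in KO, 1.41% of that in monocyte/macrophage-like cells, and 4.33 CPM in DKO, 4.15% of it. The KO cell with Itgam also held 81 UMIs of 7 core myeloid genes (Lyz2, Cd14, Csf1r, C1qa, C1qb, C1qc and Apoe), among them 18 of Lyz2, and had 12490 UMIs in all. The 3 cells with Itgax held 0 core myeloid UMIs.

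T cell-like cells, which carried T cell receptor and CD3 genes with under 3 cytotoxic genes, had Itgam or Itgax together with myeloid RNA in KO. There, 4 of 130 cells (3.08%, 0.845 to 7.69) had 8 Itgam and 3 Itgax UMIs between them, and in DKO 1 of 54 (1.85%) had 1 Itgax UMI and 0 core myeloid UMIs. All 4 KO cells held core myeloid UMIs, 40, 34, 27 and 1, whereas 99 of the 130 cells held none. The 3 with 27 or more also held the 8 Itgam UMIs and the 3 Fcgr1 UMIs of the class, and had 7527, 9121 and 11313 UMIs in all. In these 3 cells the myeloid and T cell transcripts stood side by side, as they do in cells holding markers of a pair of lineages, which were kept apart: of 11 KO cells with T cell and mononuclear markers 7 had Itgam or Itgax. Among the 46 KO T cell-like cells with Cd4 and without CD8 genes, 2 had Itgam and 1 of these also had Itgax. They were the cells with 40 and 27 core myeloid UMIs described above.

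Cytotoxic T cell-like cells in KO had Itgax in cells that mostly held no core myeloid UMIs. They had 21 Itgax UMIs in 16 of 161 cells (9.94%, 5.79 to 15.6), or 25.3 CPM (15.6 to 38.6), which was 21.5% of the level in KO monocyte/macrophage-like cells. The share stood beside 0.459% (0.0116 to 2.53) of KO B cell-like cells, at median depths of 4035 and 2453 UMIs. In KO T cell-like cells, at a median of 3672 UMIs, Itgax was found in 3 of 130, at 5.29 CPM (1.09 to 15.5). In the few KO cytotoxic innate-like cells it was found in 2 of 6. Itgam was rare in the KO cytotoxic T cell-like cells: 2 UMIs in 2 cells, or 2.41 CPM (0.292 to 8.70), 1.89% of the macrophage-like level. Fcgr1 was found in 0 of the 161 cells, which allows a share of up to 1.86%. Of the 18 cells with Itgam or Itgax, 14 held 0 core myeloid UMIs, and of the 16 with Itgax, 13 did; the most in any of the 18 was 6. The class as a whole held 47 core myeloid UMIs in 26 cells. For every 1000 core myeloid UMIs there were 447 of Itgax, against 9.49 in monocyte/macrophage-like cells, a ratio at which the 47 core UMIs would come with 0.446 Itgax UMIs, where 21 were counted. The gate itself limits the core count of this class. All core genes but Apoe are markers of the monocyte/macrophage list, and cells with enough markers of both lineages were kept apart. The core genes hold no dendritic cell marker, and the part of myeloid RNA from other cells was not tested. Without the cells that held any core myeloid UMI, the share with Itgam or Itgax was 10.4% (14 of 135), beside 11.2% (18 of 161) with them.

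**Figure D2:**
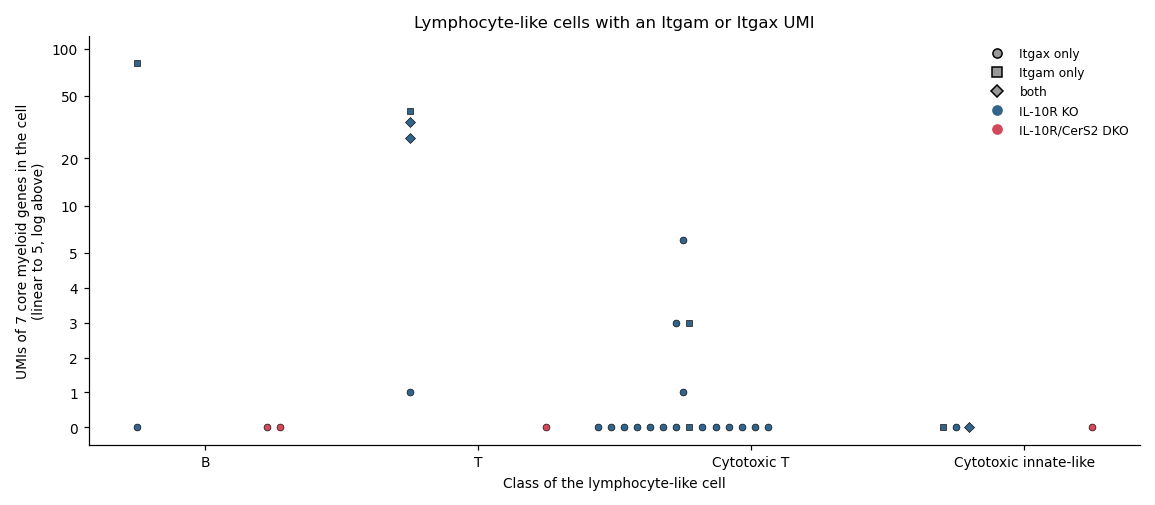
Each point is a lymphocyte-like cell with an Itgam or Itgax UMI, placed by its class (x axis) and by its UMIs of 7 core myeloid genes (y axis, linear to 5 and logarithmic above), with shape for the integrin found and colour for the library. The 14 KO cytotoxic T cells at 0 contrast with the 3 KO T cells at 27 to 40 and the KO B cell at 81.

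Cd8a, Gzmb and Itgae were more often found, by value, in the 18 positive cytotoxic T cells than in the 143 negative ones. Each of the 18 had Nkg7, a granule protein of cytotoxic cells that is in the list behind the class, and Cd3e or Trac, of the T cell receptor complex. Cd8a was found in 11 of the 18 (61.1%, 35.7 to 82.7) and in 48 of the 143 negative cells (33.6%, 25.9 to 41.9), Gzmb, a granzyme that is also in that list, in 11 and in 43 (30.1%, 22.7 to 38.3), and Itgae, the chain that binds E-cadherin, in 9 (50%, 26.0 to 74.0) and in 28 (19.6%, 13.4 to 27.0). Cd8b1, the other chain of CD8, was found in 4 (22.2%, 6.41 to 47.6) and in 27 (18.9%, 12.8 to 26.3), and Tcrg-C1, of the gamma-delta receptor, in 6 (33.3%, 13.3 to 59.0) and in 31 (21.7%, 15.2 to 29.3). The intervals of positive and negative cells overlap for each of the 5, and the positive cells were somewhat deeper, with medians of 4546 and 4008 UMIs. They lay apart for Plscr1, 1 of the 8 genes of a list for B cell subsets compared in the same cells, and overlapped for the rest of that list. Plscr1, named for that reason, was found in 12 of the 18 (66.7%, 41.0 to 86.7) and in 42 of the 143 (29.4%, 22.1 to 37.6). Cd4 was found in 1 positive cell, and Trdc, also of the gamma-delta receptor, in 1 positive and 7 negative cells. Of the 64 KO cells with Cd8a or Cd8b1 and without Cd4, 11 had Itgax (17.2%, 8.90 to 28.7) while of the 84 with none of these genes 4 had Itgax (4.76%, 1.31 to 11.7), with overlapping intervals. Of the 78 with a constant gene of the gamma-delta receptor 11 had Itgax (14.1%, 7.26 to 23.8). Itgb2, the partner chain of CD11c, was seen in 2 of the 18 and in 26 of the 143.

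In DKO none of the 53 cytotoxic T cell-like cells had Itgam or Itgax, which allows a share of up to 5.66%; at the KO share 5.93 cells would have had it. The interval of the log2 ratio of Itgax, DKO over KO, ended at -0.58, with no lower bound at 0 UMIs. The DKO class differed in its CD8 cells as well. Cells with Cd8a or Cd8b1 and without Cd4 were 64 of 161 in KO and 9 of 53 in DKO, and Itgae was found in 37 and 3 cells. Among those 9 DKO cells 0 had Itgax, which allows a share of up to 33.3%. The part of this CD8 difference in the Itgax difference was not tested. With at least 2 markers in place of 3, 1 of 72 DKO cells was positive. In the clusters named for T cells, which took in more cells, 4 of 121 DKO and 31 of 323 KO cells were. Of these clusters, cluster 10 (34 KO and 8 DKO cells) was mixed. Its KO cells included 11 cytotoxic T cell-like and 10 epithelial cell-like cells, and 9 of the 34 had Itgax. Thinned to 1500 UMIs a cell, the KO share was 3.75% (6 of 160) in place of 11.2%, and the Itgax share of KO monocyte/macrophage-like cells was 11.97% in place of 32.0%.

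Cytotoxic innate-like lymphocytes, with at least 3 cytotoxic genes and under 2 T cell markers, were too few for a share. Itgam or Itgax was found in 3 of 6 KO and 1 of 3 DKO cells, with 0 core myeloid UMIs in each. Of the 3 KO cells, 1 with Itgam had 17 UMIs of Nkg7 and 1 of Ncr1, and 1 with Itgax had 7 of Nkg7, 22 of Xcl1 and 4 of Klrb1c, genes known from natural killer cells. The remaining KO cell held Itgam, Itgax and Fcgr1 together with 113 UMIs of Cd74, the invariant chain of antigen presentation, and 0 of Nkg7, which goes against its class. The DKO cell had 13 UMIs of Nkg7 and 51 of Gzmb.

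Among the other classes, neutrophil-like cells had the highest Itgam level of the 6 classes drawn. It was 190 CPM (141 to 250) in KO, above the monocyte/macrophage-like level of 127 CPM (120 to 135). The DKO levels of these classes, 204 CPM (114 to 337) and 131 CPM (116 to 147), had overlapping intervals. Fcgr1, which separates macrophages from neutrophils, was found in 0 of 149 KO and 0 of 43 DKO neutrophil-like cells, which allows shares of up to 2.01% and 6.98%. Itgax was at 64.5 CPM (37.6 to 103) in the KO neutrophil-like cells and at 78.1 CPM (48.9 to 118) in the dendritic cell-like cells, and each interval overlapped that of the next class in the order. In dendritic cell-like cells Itgam was low, 14.2 CPM (3.87 to 36.4) in KO.

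**Figure D3:**
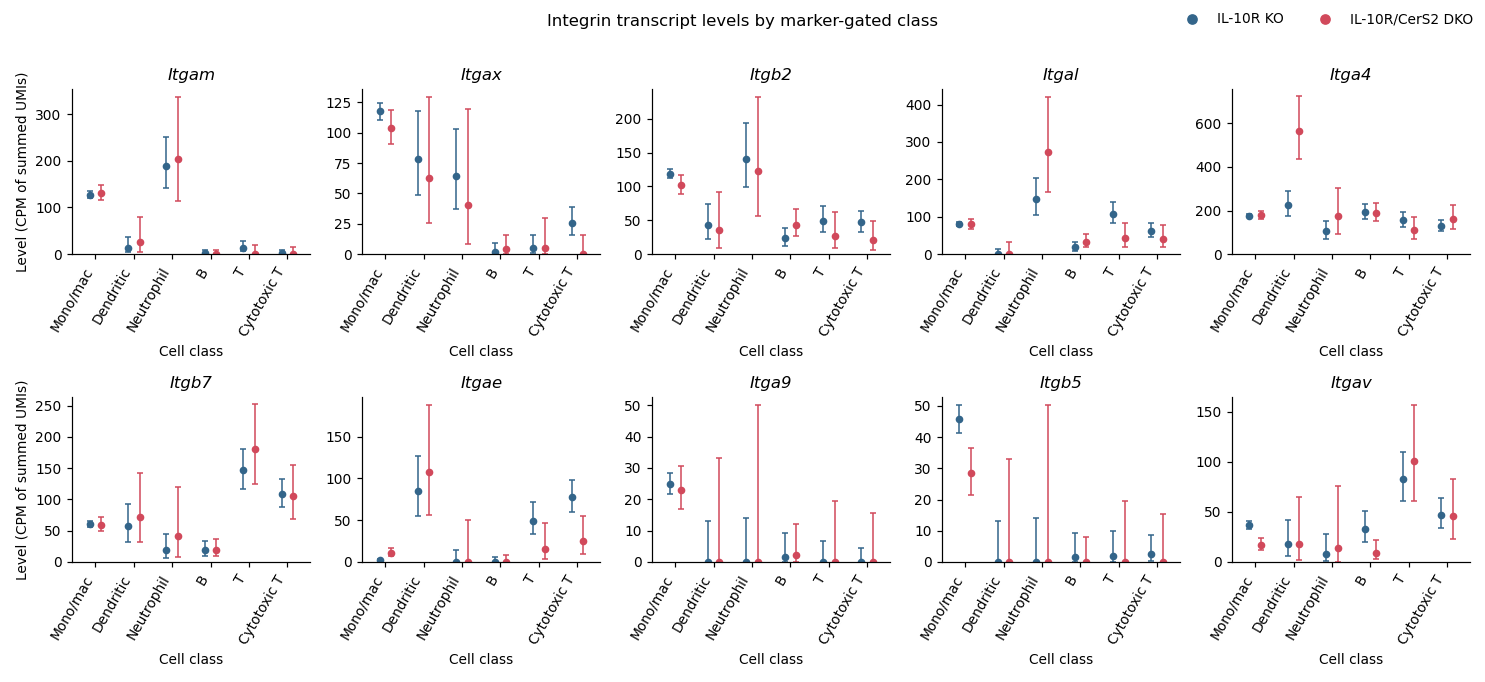
Level of each of the 10 integrin genes (y axes, CPM of UMIs summed over a class, a separate linear scale per gene from 0) in 6 marker-gated classes (x axis), with exact 95% intervals, KO in blue and DKO in red. Itga9 and Itgb5 are near 0 outside monocyte/macrophage-like cells, Itgb7 and Itgav peak in T cells, and in KO Itgae is highest in dendritic cells and cytotoxic T cells.

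The shared beta chain Itgb2 was less bound to the myeloid classes than Itgam and Itgax were. In KO it was at 140 CPM (98.9 to 194) in neutrophil-like and 119 CPM (112 to 126) in monocyte/macrophage-like cells, then between 42.6 and 49.4 CPM in T, cytotoxic T and dendritic cell-like cells and at 23.3 CPM (12.7 to 39.0) in B cell-like cells. Itgal, the alpha chain by which T cells bind ICAMs, was at 148 CPM (105 to 202) in KO neutrophil-like, 108 CPM (82.3 to 138) in T cell-like, 81.2 CPM (75.4 to 87.3) in monocyte/macrophage-like and 62.6 CPM (46.7 to 82.1) in cytotoxic T cell-like cells. It was found in 0 of 24 KO and 0 of 11 DKO dendritic cell-like cells, which allows shares of up to 12.5% and 27.3%. B, T and cytotoxic T cells of both libraries thus carried Itgb2 and Itgal.

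Itga4 was the most even of the 10, at 106 to 227 CPM in the 6 KO classes, with overlapping intervals for each pair of neighbours in the order. In the 11 DKO dendritic cell-like cells it was at 566 CPM on 63 UMIs. Its gut-homing partner Itgb7 was uneven. In KO it was highest in T cell-like (146 CPM, 117 to 181) and cytotoxic T cell-like cells (108 CPM, 87.1 to 133), then at 60.8 CPM (55.8 to 66.1) in monocyte/macrophage-like cells, and lowest in neutrophil-like and B cell-like cells at 19.0 and 18.3 CPM. In DKO, T, cytotoxic T and monocyte/macrophage-like cells were at 180, 105 and 59.6 CPM, with overlapping neighbours, and the 11 dendritic cell-like cells were at 71.8 CPM. The B cells thus carried Itga4 at 193 CPM in KO and 190 CPM in DKO with little of its gut-homing partner.

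In KO, Itgae was high in dendritic cells and T cells and low in macrophages. It was at 85.2 CPM (54.6 to 127) in dendritic cell-like, 77.0 CPM (59.3 to 98.4) in cytotoxic T cell-like and 49.4 CPM (32.8 to 71.4) in T cell-like cells, at 2.59 CPM (1.64 to 3.89) in monocyte/macrophage-like cells, and at 0 UMIs in 218 B cell-like and 149 neutrophil-like cells, which allows shares of up to 1.38% and 2.01% of cells. In DKO this order was not resolved: cytotoxic T cell-like cells were at 25.1 CPM (9.23 to 54.7), T cell-like cells at 15.9 CPM (3.28 to 46.5) and monocyte/macrophage-like cells at 10.6 CPM (6.62 to 16.0), with overlapping intervals, and the 11 dendritic cell-like cells at 108 CPM. In the KO cytotoxic T cells with Cd8a or Cd8b1 and without Cd4 it was found in 25 of 64 (39.1%, 27.1 to 52.1), and in 10 of the 84 with none of these genes (11.9%, 5.86 to 20.8). Of the 7 KO cytotoxic T cells with Foxp3, 3 had it, and of the 14 T cell-like cells with Foxp3, 5 did.

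Itga9 and Itgb5, chains of matrix receptors, came almost wholly from macrophages. The monocyte/macrophage-like class held 96.1% of all Itga9 UMIs and 96.2% of all Itgb5 UMIs in KO, and 98.0% and 98.3% in DKO, beside its large part of all UMIs given above. Itgav, the alpha chain that Itgb5 needs, was more widely spread. In KO it was at 82.9 CPM (60.9 to 110) in T cell-like cells, above 46.9 CPM (33.4 to 64.2) in cytotoxic T cells by value but with overlapping intervals, and 36.8 CPM (32.9 to 41.0) in monocyte/macrophage-like cells.

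Within the macrophage compartment the integrins differed between states. Each monocyte/macrophage-like cell was given the state (monocyte, mature macrophage, nonclassical monocyte or inflammatory) whose marker list it covered most. The KO library held 535, 720, 78 and 215 such cells and the DKO library 113, 190, 32 and 5. In KO, Itgam was highest in the inflammatory state, at 217 CPM (193 to 244), and at 120 CPM (107 to 133) in monocytes and 108 CPM (98.4 to 118) in mature macrophages. Itgax was highest in mature macrophages, at 171 CPM (160 to 184), against 43.4 CPM (35.8 to 52.1) in monocytes. Fcgr1 had another order, with 110 CPM (97.9 to 124) in monocytes, 72.1 CPM (64.5 to 80.3) in mature macrophages and 26.3 CPM (18.3 to 36.6) in the inflammatory state. In KO the sums of the 3 sort antigens thus each peaked in a different state, with intervals apart from those of the other states. The mature state pooled unlike cells, by the clusters taken up below. In KO mature macrophages of cluster 0, Itgam was at 80.2 CPM and Itgax at 223 CPM. In those of cluster 3, Itgam was at 243 CPM and Itgax at 15.3 CPM.

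**Figure D4:**
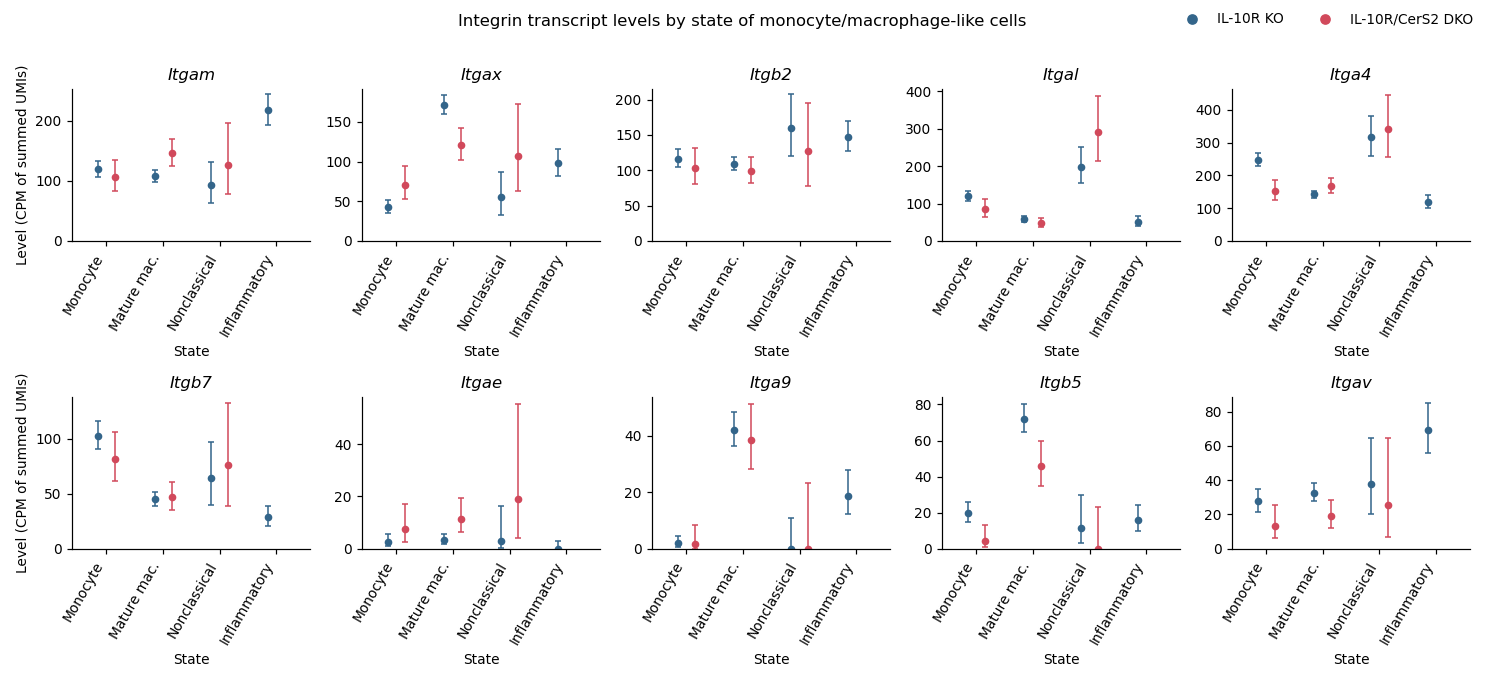
Level of each of the 10 integrin genes (y axes, CPM of summed UMIs, a separate linear scale per gene from 0) in 4 states of monocyte/macrophage-like cells (x axis), with exact 95% intervals, KO in blue and DKO in red; the inflammatory state of DKO, with 5 cells, is not drawn. As sums over a state, Itgax, Itga9 and Itgb5 peak in mature macrophages, Itgam and Itgav of KO in the inflammatory state, and Itgal and Itga4 in nonclassical monocytes.

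The other chains fell into like groups. Itgb5 and Itga9 were highest in KO mature macrophages, at 72.1 CPM (64.5 to 80.3) and 42.1 CPM (36.3 to 48.5), and in monocytes were at 19.6 and 1.89 CPM. Itga4 and Itgal were highest in nonclassical monocytes, at 317 CPM (260 to 383) and 198 CPM (154 to 251), followed by monocytes at 247 CPM (229 to 267) and 120 CPM (107 to 134), with overlap for Itga4. Itgb7 was highest in monocytes, at 103 CPM (91.1 to 116), and Itgav in the inflammatory state, at 69.1 CPM (55.7 to 84.8). Both of these overlapped the nonclassical monocytes, at 64.0 CPM (40.1 to 96.9) and 37.8 CPM (20.1 to 64.7).

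The loss of CerS2 was compared next, as the level in DKO over that in KO within monocyte/macrophage-like cells. The sort antigens differed little between the libraries: the log2 ratio was 0.04 (-0.16 to 0.23) for Itgam, or -0.05 with TMM scaling (which equalises the bulk of genes), -0.17 (-0.39 to 0.04) for Itgax, -0.03 (-0.29 to 0.22) for Fcgr1 and 0.01 (-0.09 to 0.10) for Ptprc, the gene of CD45. TMM scaling shifts each of these ratios by -0.10, which would put the Itgax interval below 0. Of the 10 members, 1 (Itgae) was at least 2-fold higher in DKO, where 5.9% of 10876 genes were, and 1 (Itgav) at least 2-fold lower, where 4.42% were. The median of the 10 log2 ratios was -0.06, and that of all genes 0.08.

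**Figure D5:**
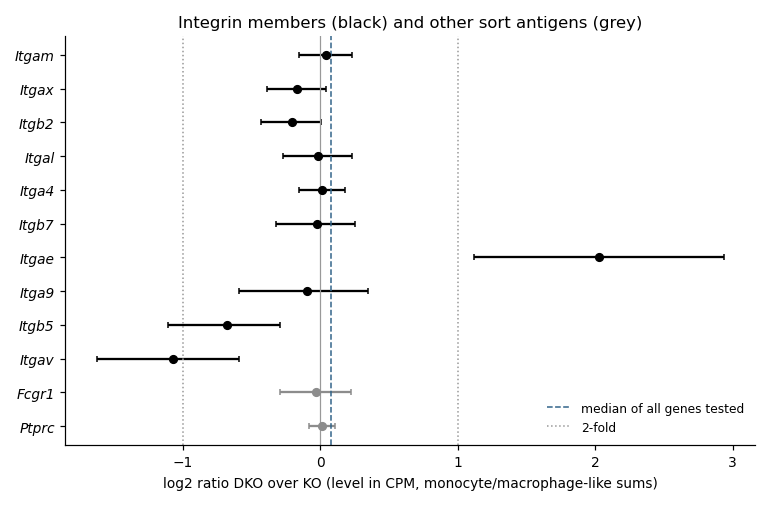
The log2 ratio of levels, DKO over KO, in monocyte/macrophage-like cells (x axis) for the 10 integrin genes (black) and 2 other sort antigens (grey), with exact 95% intervals, the 2-fold lines dotted and the median of all genes dashed. With levels scaled by total UMIs, as drawn, the intervals of Itgae, Itgb5 and Itgav lie off 0, and those of the other members include it.

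Itgav and its partner Itgb5 were the lower members in DKO. Itgav had 36.8 CPM (326 UMIs) against 17.3 CPM (36 UMIs), with a log2 ratio of -1.07 (-1.63 to -0.59). Itgb5 had 45.8 CPM (406 UMIs) against 28.3 CPM (59 UMIs), with a log2 ratio of -0.68 (-1.11 to -0.29). The inflammatory state, in which KO Itgav was highest, held 215 KO and 5 DKO cells. Without those cells the log2 ratio of Itgav was -0.81, no longer past 2-fold, and that of Itgb5 was -0.82. Within mature macrophages they were -0.77 (-1.49 to -0.15) and -0.64 (-1.09 to -0.24), and within monocytes -0.98 (-2.23 to -0.04) and -1.93 (-4.47 to -0.52), the last on 3 DKO UMIs. The states were also set against clusters, which were made without the integrins and sort antigens. Of the mature macrophages, 62.4% in KO and 43.7% in DKO lay in cluster 0, and 22.2% and 42.6% in cluster 3. Within the mature macrophages of cluster 0, Itgb5 was at 94.6 and 95.8 CPM in the libraries (log2 ratio 0.029, -0.42 to 0.43), and in those of cluster 3 it had 13 UMIs in 160 KO cells and 0 in 81 DKO cells. When each cluster of the class was given its KO weight, the ratio of Itgb5 was -0.28 in place of -0.68. Itgav was at 37.5 CPM in KO and 22.0 CPM in DKO over all monocyte/macrophage-like cells of cluster 0 (-0.73, -1.61 to -0.018), and its ratio with weighted clusters was -0.68, not past 2-fold.

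Itgae had a log2 ratio of 2.03 (1.11 to 2.94) on 23 KO and 22 DKO UMIs. Of these, 13 in KO and 15 in DKO came from the cells with at least 2 dendritic cell markers, which were 58 of 1552 and 25 of 340 cells. In the cells with 0 or 1 such marker KO had 1.20 CPM (0.574 to 2.20) where DKO had 3.87 CPM (1.55 to 7.96). Cluster 8, with 45 KO and 27 DKO cells of the class (2.90% and 7.94%), held 21 of the Itgae UMIs in each library. It also held 23 of the 24 KO and 11 of the 11 DKO dendritic cell-like cells. Among its monocyte/macrophage-like cells the Itgae level was 48.1 CPM for KO and 63.6 CPM for DKO (log2 ratio 0.40, -0.54 to 1.35), and with weighted clusters the ratio over the class was 0.42. The 2-fold difference of Itgae was thus lost within this cluster.

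Taken state by state, Itgam and Itgax had larger log2 ratios than in the class as a whole. Itgam was at 108 CPM in KO and 146 CPM in DKO mature macrophages, a log2 ratio of 0.44 (0.18 to 0.69), and at 120 and 107 CPM in monocytes, -0.16 (-0.56 to 0.21). Without the inflammatory state, where KO Itgam was highest, its ratio over the class was 0.24 (0.04 to 0.44). Itgax was at 171 CPM in KO and 121 CPM in DKO mature macrophages, -0.50 (-0.76 to -0.24), and at 43.4 and 71.0 CPM in monocytes, 0.72 (0.19 to 1.21). Within the clusters named here the intervals of these ratios included 0. In the mature macrophages of cluster 0, Itgax was at 223 CPM in KO and 210.4 CPM in DKO (-0.078, -0.37 to 0.20) and Itgam at 80.2 and 78.7 CPM (-0.014, -0.51 to 0.43). In those of cluster 3, Itgax was at 15.3 and 9.91 CPM (-0.52, -2.73 to 1.13) and Itgam at 243 and 299.7 CPM (0.31, -0.043 to 0.65). Cluster 3, low in Itgax and high in Itgam in both libraries, held 42.6% of the mature macrophages in DKO and 22.2% in KO. In the monocytes of cluster 1, which held 73.1% of KO and 65.5% of DKO monocytes, Itgax was at 16.0 CPM in KO and 12.6 CPM in DKO (-0.23, -2.06 to 1.03). Over the class with KO cluster weights, the log2 ratio was 0.059 for Itgax and 0.10 for Itgam.

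In lymphocyte classes some members also had ratios with intervals below 0. They are named because of those intervals, and no share of all genes in these classes is given beside them. In cytotoxic T cell-like cells Itgae was at 77.0 CPM in KO and 25.1 CPM in DKO (log2 ratio -1.51, -3.11 to -0.41), while Itgb7 was at 108 and 105 CPM (-0.03, -0.75 to 0.60) and Itga4 at 128 and 163 CPM (0.37, -0.21 to 0.90). In T cell-like cells Itgal was at 108 CPM in KO and 42.4 CPM in DKO (-1.27, -2.62 to -0.27). In B cell-like cells Itgav was at 33.2 CPM (20 UMIs) and 8.65 CPM (4 UMIs), a log2 ratio of -1.81 (-3.95 to -0.36).

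The remaining genes of the pathway were read from lists in the same cells. Of 16 other integrin chains 5 had the 10 UMIs needed, with 0 past 2-fold higher, 1 past 2-fold lower (beside the 5.9% and 4.42% of all genes) and a median log2 ratio of -0.05. Itgb1, the partner of Itga4 and Itga9, was at 188 CPM in KO (log2 ratio -0.13, -0.30 to 0.03), Itga5, of the fibronectin receptor, with 400 UMIs in KO (-0.05), and Itga1, of a collagen receptor, at 8.46 CPM (0.06). The largest ratios were those of Itga6, the chain called lower (-1.26, -4.68 to 0.45), and Itga8 (0.65, -2.02 to 2.51), whose intervals on 2 and 3 DKO UMIs include 0. Of 12 genes of integrin activation 10 had enough UMIs, 0 were past 2-fold in either direction (beside the same 5.9% and 4.42%), and the median was 0.09. The small GTPases Rap1a (538 CPM in KO, 0.10, 0.01 to 0.19) and Rap1b (430 CPM, 0.18, 0.08 to 0.28) and the adaptor Skap2 (241 CPM, 0.14, 0.00191 to 0.28) were the highest, and Vcl, vinculin (0.48, -0.10 to 1.01), and Pxn, paxillin (-0.26, -0.51 to -0.02), had the largest ratios.

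Ligands of these integrins were read in the same way. Of 11 ligand genes 8 had enough UMIs, 0 were past 2-fold higher and 2 past 2-fold lower, where 5.9% and 4.42% of all genes were: Spp1, osteopontin, a ligand of Itgav and Itga9 integrins, from 134 to 41.8 CPM (log2 ratio -1.67, -2.01 to -1.37), and C3, whose fragment iC3b is bound by CD11b and CD11c, from 249 to 114 CPM (-1.13, -1.33 to -0.93). Icam1, bound by Itgal and Itgam, was at 200 CPM in KO (-0.10, -0.26 to 0.06), and Fn1, fibronectin, at 141 CPM in KO and 181 CPM in DKO (0.36, 0.19 to 0.53). The median of the list was -0.10.

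Across the 11 class sums with at least 20 cells, the genes most like Itgam in log2(CPM + 1), among 9257 genes with at least 50 UMIs, were Ccl6 (Pearson r = 0.996), Fcgr3 (0.995) and Sirpa (0.991), of which Sirpa was a marker used in the gate. Those most like Itgax were Slc35b2 (0.946), Fgl2 (0.930) and Aph1c (0.924), and those most like Itgae were Stk39 (0.959), Serpinb6b (0.956) and Ctla2b (0.937). The points share libraries and depth, and the values are a description.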

How the data were processed

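The authors aligned the 3′ single-cell reads to mm10 with Cell Ranger 6.0.1 and deposited a raw UMI count matrix per library, with 2584 KO and 742 DKO barcodes. The study's cell filter was used (300 to 5000 genes, mitochondrial UMIs up to 10%). Each cell was gated on the number of different markers with a UMI (at least 3, largest share of its list), and cells with markers of 2 lineages were kept apart. Scrublet (scanpy 1.11.5) called 6 KO and 2 DKO doublets, too few to rely on, so doublets were kept, and an alternative left out the 5% of cells with the highest scores. Intervals are exact Poisson (levels), Clopper-Pearson (shares) and conditional (ratios) intervals at 95%, from scipy 1.17.1, with 0.5 added to each sum for log2 ratios over genes with at least 10 UMIs. A share of 0 allows 3 cells. Clusters were made with Seurat 5.3.0, without the members, Fcgr1 and Ptprc among the variable genes, and TMM factors with edgeR 4.0.16. The calculations were tested on simulated data. Named were the 10 members, Fcgr1 and Ptprc, of each list the 3 genes of highest level and the 2 largest ratios, and the 3 genes most like Itgam, Itgax and Itgae. Genes set beside positive cells, and Cers2, were chosen after their values were seen. Members and lists were chosen with earlier results of these data known. Gene positions are from GRCm38 annotation.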

Additional observations from a re-analysis of the deposited data

Results flagged for a closer look

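Some integrins had log2 ratios of DKO over KO whose intervals lay above 0 in one cell group and below 0 in another. None of these differences between groups was tested, since each genotype had 1 library. Itgax was at 0.72 (0.19 to 1.21) in monocytes and at -0.50 (-0.76 to -0.24) in mature macrophages, but at -0.23 (-2.06 to 1.03) in the monocytes of cluster 1 and at -0.078 (-0.37 to 0.20) in the mature macrophages of cluster 0. Itgal was at 0.90 (0.02 to 1.69) in neutrophil-like cells, at -1.27 (-2.62 to -0.27) in T cell-like cells and at -0.47 (-0.91 to -0.08) in monocytes. In the monocytes of cluster 1 Itgal was at -0.24 (-0.74 to 0.21). Itga4 was at 1.32 (0.79 to 1.84) in dendritic cell-like cells, of which DKO held 11. It was at 0.24 (0.01 to 0.47) in mature macrophages, but at -0.09 (-0.49 to 0.27) in those of cluster 0 and at -0.00042 (-0.41 to 0.40) in those of cluster 3. In monocytes Itga4 was at -0.69 (-1.01 to -0.40), and in the monocytes of cluster 1 at -0.90 (-1.33 to -0.52). Itgae was at 2.03 (1.11 to 2.94) in monocyte/macrophage-like cells and at 1.80 (0.63 to 2.95) in their mature state, and at -1.51 (-3.11 to -0.41) in cytotoxic T cell-like cells. In cluster 8, which held 21 of the 23 KO and 21 of the 22 DKO Itgae UMIs of monocyte/macrophage-like cells, it was at 0.40 (-0.54 to 1.35).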

How the results depend on the processing

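Of 188 alternative values for 23 results, 167 stayed within the counting interval of the value reported (or near it, for the count of genes) and 21 moved, and 0 of the ratios whose interval lay off 0 changed sign. Thinning to 1500 UMIs a cell moved the shares with Itgam or Itgax to 3.75% in KO cytotoxic T cell-like cells and to 0 in DKO B and T cell-like cells and in the cytotoxic innate-like cells of both libraries. It moved the monocyte/macrophage-like shares to 18.6% (KO) and 17.7% (DKO) for Itgam, and to 11.97% and 9.63% for Itgax. The KO T cell-like share was 0.8% without the highest doublet scores and 0 without core myeloid UMIs, and the DKO one was 0 with at least 2 markers. The KO cytotoxic T cell-like share ran from 3.75% to 13.8% over its alternatives. The DKO share was 1.39% with at least 2 markers, 3.31% by clusters (the mixed cluster 10 among them) and 0 otherwise. The log2 ratio of Itgam was 0.24 both without the inflammatory state and with the 3 states of at least 20 cells in both libraries weighted as in KO. With the clusters of at least 20 such cells in both libraries weighted as in KO, an alternative chosen after the data were seen, the log2 ratio was 0.059 for Itgax, 0.0067 for Itgb2, -0.21 for Itga4, 0.42 for Itgae and -0.28 for Itgb5. TMM scaling lowered every log2 ratio by 0.10, which turned that of Itgam to -0.05. The intervals of Itgax and Itgb2, with upper ends of 0.04 and 0.00141 before it, would lie below 0 after this shift. With genes of at least 1 UMI, 2690 genes were past 2-fold in place of 1123. Clusters gave no T cell-like and no cytotoxic innate-like class. No paired analysis was possible because each genotype had 1 library. Where classes held few cells, depth limits what a share of 0 can show.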

Other observations

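In KO, cells with markers of more than 1 lineage, which entered no class above, carried Itgam or Itgax about as often as monocyte/macrophage-like cells. The shares were 39 of 59 (66.1%, 52.6 to 77.9) and 60.8% (58.3 to 63.2), at median depths of 6219 and 5489 UMIs. In DKO they were 7 of 8 and 63.2%. Of 35 KO cells with mononuclear and neutrophil markers 24 had Itgam or Itgax, and of 6 such DKO cells 6 did. The 4 KO cells with B cell and mononuclear markers, at a median of 7925 UMIs, all had them, with 20 Itgam UMIs and 1 of Itgax. Of all KO cells with an Itgam or Itgax UMI, 943 of 1099 (85.8%) were monocyte/macrophage-like and 18 (1.64%) cytotoxic T cell-like.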
